A study of Mus musculus with 18 samples.

Results

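Endothelial cells line blood vessels and are recognised by a small set of genes, while a separate set encodes the surface proteins by which leukocytes are caught and pass into tissue. Selectins on the vessel wall slow leukocytes so that they roll, and ICAM and VCAM proteins then hold them through integrins until they cross between endothelial cells. Resting endothelium carries little E-selectin or VCAM-1, and inflammatory cytokines such as TNF induce both. The set described here holds 10 such genes chosen by name, and all 10 were found among the 54232 genes counted. Pecam1 (the junction protein CD31), Cdh5 (VE-cadherin), Kdr (VEGF receptor 2), Cldn5 (the tight junction protein claudin-5) and Vwf (von Willebrand factor) mark vessel identity. Icam1, Vcam1, Sele (E-selectin), Selp (P-selectin) and Icam2 are the adhesion genes. The set was chosen with a rise of Pecam1 in NOD.H-2b mice with age in view. Values of Pecam1 that involve NOD.H-2b mice, and changes with age within NOD.H-2b for all 10 genes, are therefore given as descriptions with no test.

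RNA from whole lacrimal glands (LGs) of male mice was sequenced, each sample being the LG of a different mouse, with its capsule removed. The mice were BALB/cJ (BALB/c, the healthy control strain) and NOD.B10Sn-H2b/J (NOD.H-2b, a model of primary Sjögren's syndrome that carries the H2b haplotype on the NOD background) aged 2 months (2M), 4 months (4M) or 6 months (6M), with 3 mice in each of the 6 groups. No treatment was given, and since the strains differ across the whole genome, strain background and disease cannot be told apart in a comparison of strains. The total counts per mouse ranged from 49480781 to 103936830. Levels are given as CPM (counts scaled to the size of each library, with TMM factors over the 18 mice), errors are SD with n = 3 unless named otherwise, and a gene was called at a false discovery rate (FDR) under 0.05 over all genes tested.

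Detection of the genes was checked by their counts, which does not test the vessel label of the set. Vwf, Kdr, Pecam1 and Cdh5 each had at least 167 counts in every mouse. Cldn5 was near the floor, with 2 to 32 counts per mouse, and its levels are read here with counting error in mind. Sele was also low, at 1 to 6 counts in each BALB/c mouse and 11 to 35 in each NOD.H-2b mouse.

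The promoters of Icam1, Sele and Selp, which lay higher in NOD.H-2b at all ages, are shown first. Which starts were in use in these glands was not measured. The set of RefSeq promoters on GRCm38.p6 used here had entries for 5 of the 10 genes (Kdr, Cldn5, Icam1, Sele and Selp). The 250 bases before the start are printed 5′ to 3′ in the direction of transcription for Icam1 (chr9:21015690-21015939, plus strand), Sele (chr1:164047984-164048233, plus strand), Selp (chr1:164115014-164115263, plus strand) and, for contrast, Kdr (chr5:75978456-75978705, minus strand). Capitals mark every match to GGG and CC with 5 bases of any kind between (NF-kB), GAAA and GAAA with 2 bases of any kind between (interferon response), TTCNNNGAA (STAT), TGANTCA (AP-1) or CAGGAAGT (ETS) on either strand.
Icam1: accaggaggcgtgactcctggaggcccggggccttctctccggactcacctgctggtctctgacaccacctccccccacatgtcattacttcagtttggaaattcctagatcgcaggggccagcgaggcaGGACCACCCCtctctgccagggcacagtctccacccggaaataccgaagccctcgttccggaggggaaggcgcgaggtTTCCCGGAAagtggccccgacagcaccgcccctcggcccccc
Sele: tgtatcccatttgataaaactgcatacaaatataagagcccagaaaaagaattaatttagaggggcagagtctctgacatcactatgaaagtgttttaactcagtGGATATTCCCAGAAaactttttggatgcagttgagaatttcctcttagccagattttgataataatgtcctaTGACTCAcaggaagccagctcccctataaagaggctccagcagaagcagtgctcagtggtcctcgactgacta
Selp: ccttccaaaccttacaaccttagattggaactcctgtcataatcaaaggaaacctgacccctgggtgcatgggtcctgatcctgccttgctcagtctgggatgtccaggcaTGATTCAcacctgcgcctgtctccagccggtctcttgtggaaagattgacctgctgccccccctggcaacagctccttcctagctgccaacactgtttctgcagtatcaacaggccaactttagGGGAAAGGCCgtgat
Kdr: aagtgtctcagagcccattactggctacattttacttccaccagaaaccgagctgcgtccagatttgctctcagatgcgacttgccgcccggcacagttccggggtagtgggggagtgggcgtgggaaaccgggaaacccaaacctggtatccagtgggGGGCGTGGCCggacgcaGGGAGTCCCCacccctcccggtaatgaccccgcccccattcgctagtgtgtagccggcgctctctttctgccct

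The Sele promoter held 3 matches, an NF-kB match that starts 145 bases before the start, a STAT match at 140 that overlaps it, and an AP-1 match at 73. Icam1 held an NF-kB match at 120 and a STAT match at 42, and Selp an AP-1 match at 139 and an NF-kB match at 15. Kdr held NF-kB matches at 91 and 74, and Cldn5 overlapping ones at 68 and 67. The NF-kB pattern is common, since 45.8% of the 32851 promoters in the table held it, while 7.02% held TTCNNNGAA and 6.75% held TGANTCA. Matches to the interferon response pattern (2.98% of promoters) and CAGGAAGT (2.69%) were not found in these 5 windows. A match describes letters only and is not evidence of binding.

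The first question was whether vessel identity genes and adhesion genes differed between the strains together or apart. At every age the median difference between strains was larger for the adhesion genes than for the vessel identity genes, though single genes of the classes overlapped (at 2M Icam2 lay below Vwf and Pecam1, and at 6M Selp below Pecam1). The 5 adhesion genes had a median log2 fold change of 2.41, 2.91 and 3.86 at 2M, 4M and 6M. That of the 5 vessel identity genes was 0.06, 0.35 and 0.88, and that of all genes tested lay within 0.01 of 0 at each age. Sele passed the filter on low counts only through the NOD.H-2b mice, in which it is high, so it is described with no test, though it is 1 of the 5 genes behind the adhesion medians. Pecam1, for which the set was chosen, is likewise 1 of the 5 genes behind the vessel identity medians. The comparison of the medians is therefore a description with no test. Of the other 4 adhesion genes, 3 were called higher at 2M and all 4 at 4M. At 6M Icam2 is also described with no test. Its BALB/c counts there were 4 to 33 per mouse, and it passed the filter through the NOD.H-2b mice. Icam1, Vcam1 and Selp were called higher at 6M. Of all genes, 22.5%, 23.4% and 28.6% were called higher at 2M, 4M and 6M. At 2M and 6M Cldn5 passed the filter through the BALB/c mice, in which it is higher, so it is described there with no test. Among the tested vessel identity genes (Vwf, Kdr, Cdh5 and, at 4M, Cldn5), Vwf was called higher and Kdr lower at 2M. Vwf alone was called at 4M, and Vwf and Cdh5 were called higher at 6M. Of all genes, 17.2% were called lower at 2M, 19.2% at 4M and 25.8% at 6M. In bulk tissue, more cells of a type and more RNA per cell cannot be told apart. The strain comparisons at every age use the same NOD.H-2b mice as the rise of Pecam1 with age.

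**Figure D1:**
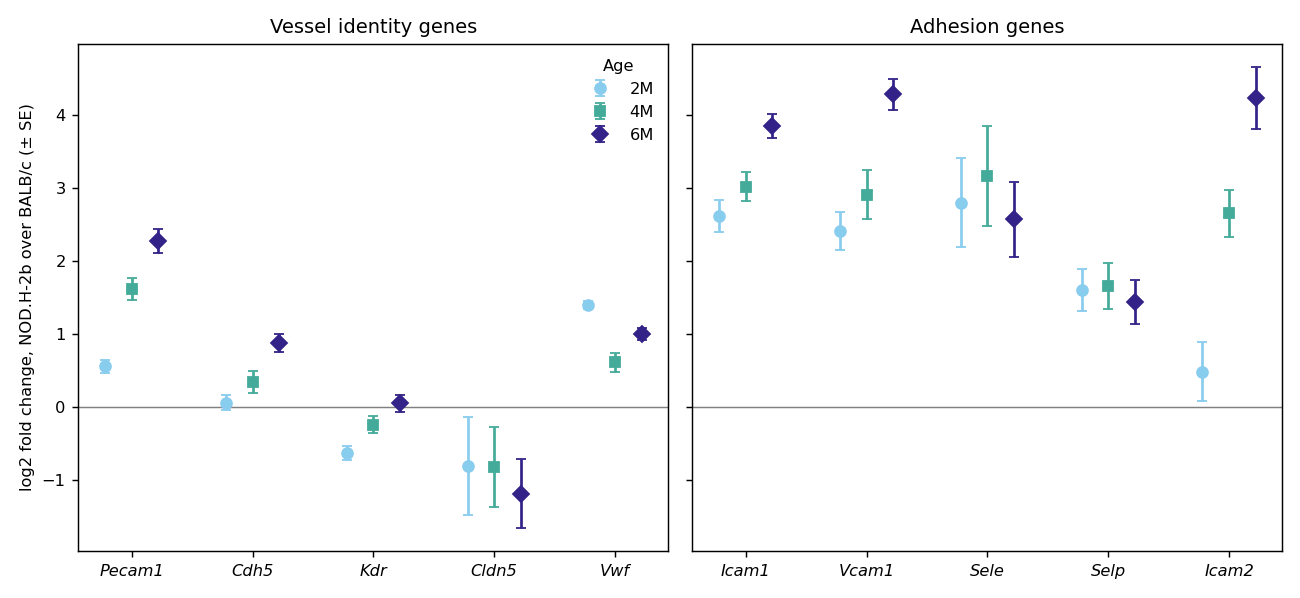
The log2 fold change of NOD.H-2b over BALB/c (y axis, with SE) is plotted for each gene at 2M (circles), 4M (squares) and 6M (diamonds), from 3 mice per group. Pecam1, Sele, Cldn5 at 2M and 6M, and Icam2 at 6M are descriptions with no test. The adhesion genes lie between 0.49 and 4.29, while Kdr and Cldn5 lie at or below 0.05.

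Icam1 encodes ICAM-1, which binds the integrin LFA-1 of leukocytes (ENSMUSG00000037405, chr9:21015985-21028817 on GRCm38). At 2M its level was 1.30, 1.40 and 1.20 CPM in the BALB/c mice and 5.89, 10.4 and 6.95 CPM in the NOD.H-2b mice. At 4M it was 2.18, 1.91 and 2.62 CPM in BALB/c and 22.9, 14.4 and 17.3 CPM in NOD.H-2b, and at 6M 1.44, 1.49 and 1.66 against 25.5, 16.9 and 22.3 CPM. The strains did not overlap at any age, and every NOD.H-2b mouse of 4M or 6M was above every NOD.H-2b mouse of 2M. The strain difference was 2.62 ± 0.22 on the log2 scale (SE, FDR = 1.19e-05 by edgeR) at 2M, 3.02 ± 0.20 (FDR = 9.56e-06) at 4M and 3.86 ± 0.17 (FDR = 1.86e-07) at 6M.

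Vcam1 encodes VCAM-1, the endothelial partner of the integrin VLA-4 on lymphocytes (ENSMUSG00000027962, chr3:116109949-116129688). At 2M the BALB/c mice had 1.45, 1.15 and 0.95 CPM (mean 1.18 ± 0.25) and the NOD.H-2b mice 4.02, 7.00 and 7.29 CPM (mean 6.10 ± 1.81). The 4M NOD.H-2b mice had 21.3, 12.8 and 14.1 CPM against 2.12 ± 0.83 CPM in BALB/c, and those of 6M had 29.1, 19.4 and 24.9 CPM against 1.24 ± 0.30 CPM. Again no mouse of one strain lay within the range of the other. The log2 fold change was 2.41 ± 0.26 at 2M (SE, FDR = 9.7e-05, edgeR), 2.91 ± 0.34 at 4M (FDR = 0.000797) and 4.29 ± 0.21 at 6M (FDR = 5.86e-07).

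Icam2, a ligand of LFA-1 that resting endothelium already carries, was called higher at 4M and not at 2M, and its 6M difference is a description (ENSMUSG00000001029, chr11:106377656-106388075). Its 2M levels were 0.25, 0.50 and 0.51 CPM in BALB/c and 0.33, 0.65 and 0.74 CPM in NOD.H-2b, so that the strains overlapped, and the difference of 0.49 ± 0.41 (log2, SE) was not called (FDR = 0.379, edgeR). At 4M the NOD.H-2b mice had 4.21, 2.69 and 2.34 CPM against 0.50, 0.33 and 0.63 CPM in BALB/c, and at 6M 4.95, 2.71 and 4.87 CPM against 0.35, 0.085 and 0.16 CPM. These groups lay apart, with a log2 fold change of 2.66 ± 0.32 at 4M (SE, FDR = 0.000153, edgeR) and 4.24 ± 0.43 at 6M (SE, with no test). The size at 6M rests in part on low BALB/c counts, which were 4 to 33 per mouse. Whether the strain difference itself differed between ages was not tested for any of the genes.

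Both selectins lay higher in every NOD.H-2b mouse than in the BALB/c mice of its age. Sele, which endothelium makes on cytokine stimulation (ENSMUSG00000026582, chr1:164048234-164057677), was at 0.18, 0.38 and 0.46 CPM in the 2M NOD.H-2b mice, 0.21, 0.49 and 0.46 CPM at 4M and 0.46, 0.33 and 0.39 CPM at 6M. Its highest BALB/c value at any age was 0.12 CPM, below every NOD.H-2b mouse. Its log2 fold change was 2.80 ± 0.61, 3.16 ± 0.68 and 2.57 ± 0.51 (SE) at the 3 ages, with counts of 1 to 6 in the BALB/c mice, and is a description, since Sele does not pass the filter in BALB/c. Selp, which is stored in granules of endothelial cells and platelets (ENSMUSG00000026580, chr1:164115264-164150026), was at 1.21 ± 0.30 CPM in the 2M NOD.H-2b mice against 0.41 ± 0.006 CPM in BALB/c, 1.69 ± 0.34 and 0.53 ± 0.19 CPM at 4M, and 1.56 ± 0.18 and 0.57 ± 0.21 CPM at 6M. Its log2 fold change was 1.61 ± 0.29, 1.66 ± 0.32 and 1.45 ± 0.30 at 2M, 4M and 6M (SE, FDR = 0.00107, 0.00204 and 0.00253, edgeR), and the strains did not overlap.

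Exons of unnamed genes on the opposite strand overlap those of Icam1 (Gm47079), Vcam1 (Gm43109) and Selp (Gm16548 and Gm16587). The strand setting of the counting is not given in the sources used here, so reads of these pairs may not be separated.

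**Figure D2:**
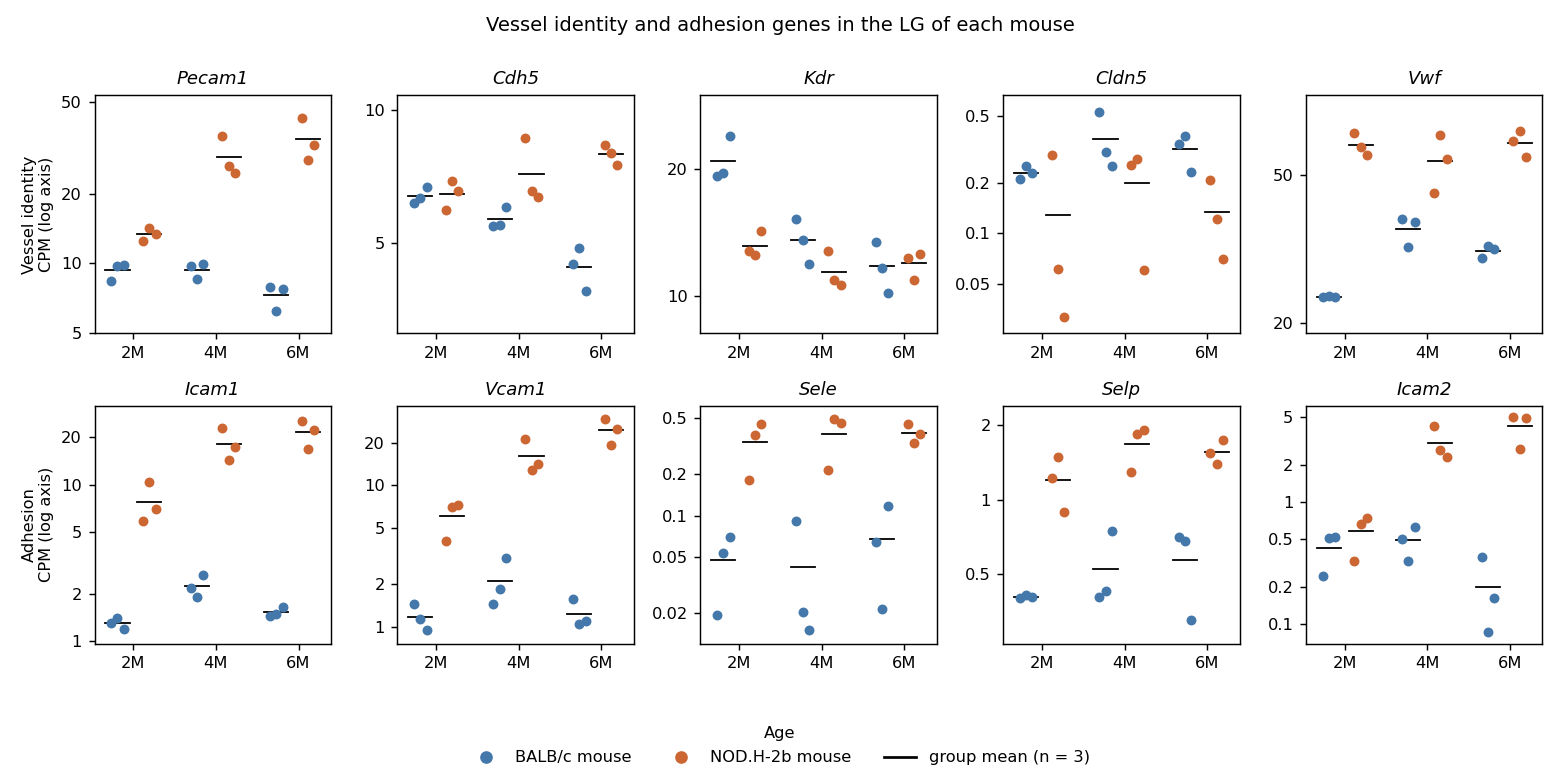
CPM on a log axis (y) for each of the 10 genes by age (x), with a point per mouse (BALB/c blue, NOD.H-2b orange) and a line at the group mean of 3 mice. Icam1, Vcam1, Sele and Selp separate the strains at every age, and Icam2 from 4M on. The strains overlap for Cdh5 at 2M, for Kdr at 4M and 6M and for Cldn5 at 2M and 4M.

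Among the vessel identity genes, Vwf, which carries platelets to damaged vessel wall, was the only tested gene called higher at all 3 ages (ENSMUSG00000001930, chr6:125546774-125686679). At 2M it had 23.4, 23.7 and 23.4 CPM in BALB/c and 64.8, 59.3 and 56.4 CPM in NOD.H-2b. The BALB/c level was higher at 4M (38.1, 32.0 and 37.3 CPM) while the NOD.H-2b level was not (44.7, 64.2 and 55.0 CPM), and at 6M the means were 31.2 ± 1.24 and 61.0 ± 4.83 CPM. No strain overlap was seen at any age. The log2 fold change was 1.40 ± 0.06 at 2M (SE, FDR = 1.36e-08, edgeR), 0.61 ± 0.13 at 4M (FDR = 0.00532) and 1.00 ± 0.08 at 6M (FDR = 5.83e-06).

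Platelets hold Vwf and Selp as well, so 7 platelet and megakaryocyte markers were followed, of which 2 passed the filter at 2M, 3 at 4M and 2 at 6M. Itga2b, the most abundant of them, was lower in NOD.H-2b at each age (log2 fold change of -1.57, -2.82 and -2.30, FDR of at most 3.18e-06 by edgeR). Pf4 was higher at 2M (1.26 ± 0.29, SE, FDR = 0.00487) and was not called at 4M (0.43, FDR = 0.246) or 6M (0.63, FDR = 0.0771). Ppbp, which passed the filter at 4M through the NOD.H-2b mice alone, had 14, 16 and 23 counts in them and 1, 0 and 0 in BALB/c. The summed level, which Itga2b leads, was 9.86 to 11.3 CPM in the BALB/c mice and 4.87 to 5.34 CPM in the NOD.H-2b mice at 2M, 10.7 to 14.1 against 3.25 to 4.19 CPM at 4M and 8.78 to 9.06 against 2.96 to 4.33 CPM at 6M. Gp1bb had no count in any mouse, and Gp1ba and Gp9 had at most 3. Apart from Itga2b and Gp1bb these markers were named after their values were seen. The part of platelets in the levels of Vwf and Selp was not tested.

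Kdr, the main receptor for VEGF-A on endothelial cells, was lower in NOD.H-2b at 2M only (ENSMUSG00000062960, chr5:75932827-75978458). The 2M levels were 19.3, 19.6 and 24.0 CPM in BALB/c and 12.8, 12.5 and 14.2 CPM in NOD.H-2b, with no overlap and a log2 fold change of -0.63 ± 0.095 (SE, FDR = 0.000322, edgeR). At 4M the strains overlapped (11.9 to 15.2 CPM against 10.6 to 12.8 CPM, FDR = 0.144), and at 6M the means were 11.8 ± 1.64 and 11.9 ± 0.91 CPM (FDR = 0.73). The BALB/c mean fell from 20.9 CPM at 2M to 13.6 CPM at 4M, while the NOD.H-2b mean was 13.2 and 11.4 CPM.

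Cdh5, the cadherin of endothelial junctions, differed between the strains by less than the replicate spread at 2M, with BALB/c at 6.38 ± 0.27 CPM and NOD.H-2b at 6.47 ± 0.49 CPM (FDR = 0.669, edgeR; ENSMUSG00000031871, chr8:104101625-104144511). At 4M the BALB/c mice had 5.46, 5.51 and 6.04 CPM and the NOD.H-2b mice 8.64, 6.57 and 6.35 CPM, which lay apart but were not called (log2 fold change 0.35 ± 0.15, SE, FDR = 0.0849). In one fit of all 18 mice that difference was called, with FDR = 0.0247, and without NOD.H-2b mouse 1 of 4M it was 0.19. At 6M the levels were 4.49, 4.88 and 3.90 CPM in BALB/c and 8.33, 8.00 and 7.52 CPM in NOD.H-2b, a log2 fold change of 0.88 ± 0.13 (SE, FDR = 0.000266).

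Cldn5, the claudin of tight endothelial junctions, was not called at 4M, and its 2M and 6M differences are descriptions with no test (ENSMUSG00000041378, chr16:18776847-18778262). It did not pass the filter among the 2M and 6M NOD.H-2b mice, so at these ages it passed through the BALB/c mice, in which it is higher. The BALB/c means were 0.23, 0.36 and 0.32 CPM and the NOD.H-2b means 0.13, 0.20 and 0.13 CPM at 2M, 4M and 6M. The log2 fold change was -0.80 ± 0.67, -0.82 ± 0.55 and -1.18 ± 0.47 (SE), with FDR = 0.268 by edgeR at 4M. The size turned on single mice of few counts. Without NOD.H-2b mouse 1, which had 18 counts against 2 and 4 in the others of its group, the 2M difference was -2.23. Without NOD.H-2b mouse 1 of 6M that age gave -1.68. Upper quartile normalization gave -1.22 at 6M.

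Pecam1, the junction protein CD31 that is also carried by platelets and many leukocytes, was the gene for which the set was chosen (ENSMUSG00000020717, chr11:106654217-106750628). Its NOD.H-2b levels were 12.5, 14.2 and 13.3 CPM at 2M, 35.5, 26.3 and 24.4 CPM at 4M and 42.6, 28.0 and 32.5 CPM at 6M. The BALB/c levels were 9.29 ± 0.78, 9.38 ± 0.74 and 7.26 ± 0.93 CPM. Every NOD.H-2b mouse was above every BALB/c mouse of its age, and the log2 fold change between strains was 0.56, 1.62 and 2.27 at 2M, 4M and 6M. Among the vessel identity genes its values were the farthest above 0 at 4M and 6M, ahead of Vwf (0.61 and 1.00) and Cdh5 (0.35 and 0.88). That order is a description, since the set was chosen for Pecam1. Of the adhesion genes, Selp lay near it at 4M (1.66) and below it at 6M (1.45). Icam1, Vcam1, Sele and Icam2 (2.66 and 4.24) lay above it at both ages.

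A score for each class was formed in each mouse as the mean log2 CPM over its genes. The adhesion mean minus the vessel identity mean was -3.80 ± 0.15 log2 units in BALB/c at 2M, -3.53 ± 0.25 at 4M and -3.65 ± 0.40 at 6M. In NOD.H-2b it was -1.88 ± 0.67, -1.07 ± 0.31 and -0.86 ± 0.28 log2 units. The BALB/c mouse nearest to 0 was at -3.25 and the NOD.H-2b mouse farthest from 0, mouse 1 of 2M, at -2.66, so the strains did not overlap. Since the genes were chosen with these results known, the gap is a description with no test.

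**Figure D3:**
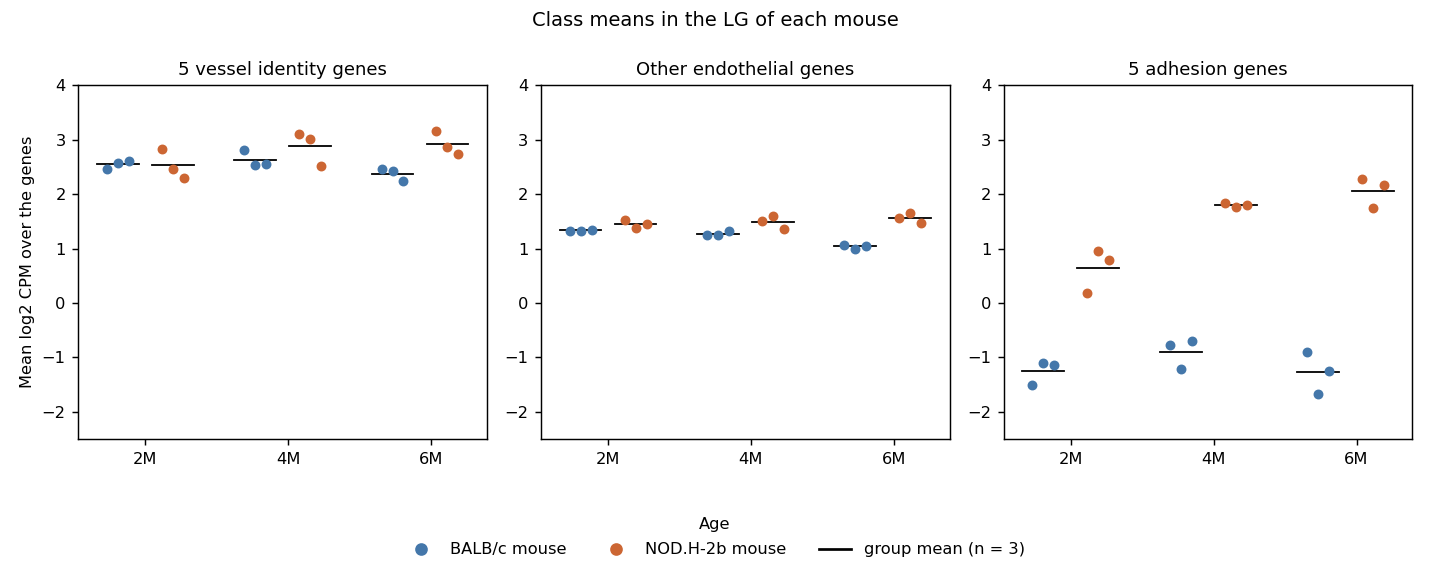
Mean log2 CPM over the 5 vessel identity genes, 28 other endothelial genes and 5 adhesion genes (y) by age (x), with a point per mouse and a line at the mean of 3 mice. The adhesion means are at most -0.70 in every BALB/c mouse and at least 0.18 in every NOD.H-2b mouse, the means of the other endothelial genes lie higher in every NOD.H-2b mouse than in the BALB/c mice of its age (1.47 to 1.66 against 0.99 to 1.07 at 6M), and the vessel identity means overlap at 2M and 4M and lie apart at 6M (2.74 to 3.17 against 2.24 to 2.46).

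To see whether vessel RNA as a whole differed, 28 further endothelial genes were followed. Their median log2 fold change was 0.02, -0.04 and 0.26 at 2M, 4M and 6M. Their summed level, which Ptprb leads, was 127.8 to 138 CPM in the 2M BALB/c mice against 129.9 to 143.4 CPM in the NOD.H-2b mice, so that the strains overlapped. At 4M it was 119 to 122 against 147.4 to 165.6 CPM, and at 6M 105.9 to 108.6 against 158.2 to 180.7 CPM, so that every NOD.H-2b mouse lay above the BALB/c mice. This sum holds S1pr1 and Fli1, which blood cells also use. At 4M S1pr1 was at 1.27 to 2.15 against 11.7 to 21.8 CPM and Fli1 at 2.44 to 3.88 against 14.5 to 22.6 CPM. At 6M they were at 1.45 to 2.00 against 15.2 to 21.0 CPM and 2.64 to 3.20 against 18.5 to 29.4 CPM. The part of blood cells in the sum was not tested. The sum of the 5 vessel identity genes, which Vwf leads, was 60.3 ± 3.40 against 93.2 ± 2.88 CPM at 2M, 64.8 ± 4.58 against 102.2 ± 5.89 CPM at 4M and 55.0 ± 1.14 against 115.4 ± 8.69 CPM at 6M, with no overlap. At 2M, 7 of the 28 genes were called higher and 3 lower, at 4M 6 and 2, and at 6M 10 and 1, and 18, 20 and 17 of the 28 were not called. Among all genes, 22.5%, 23.4% and 28.6% were called higher and 17.2%, 19.2% and 25.8% lower. Ptprb, the most abundant and an endothelial phosphatase of the TIE2 system, was lower at 2M (-0.31 ± 0.07, SE, FDR = 0.00386, edgeR) and at 4M (-0.33 ± 0.11, FDR = 0.0279) and was not called at 6M (-0.09 ± 0.08, FDR = 0.406). The 4M call of Ptprb was lost without BALB/c mouse 1 (FDR = 0.122), NOD.H-2b mouse 2 (FDR = 0.0536) or NOD.H-2b mouse 3 (FDR = 0.0687). Relative to the median of the 28 genes, the median of the adhesion genes was higher by 2.40, 2.95 and 3.60 log2 units at the 3 ages.

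The 6 endothelial genes called higher at all ages were S1pr1, Fli1, Cd93, Eng, Ecscr and Mmrn2, and apart from S1pr1 these names were chosen after their values were seen. S1pr1, a sphingosine-1-phosphate receptor that lymphocytes also use to leave tissues, had the largest mean log2 fold change over the ages (2.53). At 2M its BALB/c level was 1.69 ± 0.05 CPM and its NOD.H-2b level 3.26 ± 0.67 CPM, followed by 1.74 ± 0.44 and 15.5 ± 5.44 CPM at 4M, and 1.73 ± 0.28 and 18.4 ± 2.95 CPM at 6M (FDR = 0.00141, 0.000279 and 2.65e-07, edgeR). Fli1, an ETS factor of endothelium and blood cells, had a log2 fold change of 1.28, 2.60 and 3.00, Ecscr, an endothelial surface protein, 1.31, 1.37 and 2.41, and Cd93, a receptor of endothelium and myeloid cells, 1.12, 1.46 and 1.73. Mmrn2, a matrix protein of vessels, had 0.73, 0.71 and 1.29, and Eng, a TGF-beta co-receptor, 0.36, 0.61 and 0.73. Tek and Tie1, the angiopoietin receptor and its partner, also named after their values were seen, were not called at any age (FDR of 0.0558 or more).

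Markers of leukocytes were also higher in NOD.H-2b, and Pecam1, Icam1, Vcam1 and Icam2 are known on some leukocytes too. The summed level of 8 pan-leukocyte markers at 2M was 182, 184 and 185 CPM in the BALB/c mice, against 319, 430 and 367 CPM in the NOD.H-2b mice. At 4M it was 197, 188 and 206 against 881, 623 and 619 CPM, and at 6M 197, 204 and 194 against 999.6, 711 and 832 CPM. Of the NOD.H-2b mice of 2M, mouse 2 was highest in this sum and in Pecam1, Icam1, Cdh5 and Selp, and it was not in Vcam1, Icam2, Sele, Kdr, Vwf or Cldn5. Of the NOD.H-2b mice of 4M, mouse 1 was highest in this sum and in Pecam1, Icam1, Vcam1, Icam2, Cdh5 and Kdr, and it was not in Sele, Selp, Vwf or Cldn5. At 6M, mouse 1 was highest in the sum and in Pecam1, Icam1, Vcam1, Icam2, Cdh5, Sele and Cldn5, and it was not in Kdr, Selp or Vwf. All 8 markers were called higher at each age, 2M included, where Icam2 was not, beside 22.5%, 23.4% and 28.6% of all genes called higher at 2M, 4M and 6M. Lcp1, the most abundant of them, had log2 fold changes of 0.50, 0.59 and 0.58, and Rac2, a GTPase of blood cells, had 3.79, 3.87 and 4.89. The part of leukocytes in the levels of the shared genes was not tested.

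Lymphocyte markers were near 0 in BALB/c and higher in NOD.H-2b. The sum of 8 B cell markers was at most 2.30 CPM in any BALB/c mouse. The NOD.H-2b mice had 0.97, 27.3 and 10.7 CPM at 2M, 301, 161 and 138 CPM at 4M and 419, 211 and 283 CPM at 6M. Pax5, a B cell transcription factor and the most abundant of these markers, did not pass the filter at 2M. The sum of 8 T cell markers, of which Cd4 was the most abundant, was at most 5.28 CPM in BALB/c and 8.86, 30.7 and 19.0 CPM at 2M, 115, 65.9 and 62.8 CPM at 4M and 103.8, 74.1 and 95.7 CPM at 6M in NOD.H-2b. Mouse 1 of NOD.H-2b at 2M had the lowest sums of both lists and also the lowest Vcam1, Icam1, Icam2, Sele, Pecam1 and Cdh5 of its group. That mouse was not lowest in Selp or Kdr and was highest in Vwf and Cldn5. The sum of 8 macrophage markers at 2M was 70.4 ± 9.69 CPM for BALB/c against 179.7 ± 7.02 CPM for NOD.H-2b, and at 6M 86.8 ± 12.1 against 229 ± 36.5 CPM. In no comparison within BALB/c did 5 of the 8 B cell markers or 4 of the 8 T cell markers pass the filter, so no count of calls is given for these lists. All 8 macrophage markers passed within BALB/c, and 8, 6 and 6 of them were called higher at 2M, 4M and 6M, against 22.5%, 23.4% and 28.6% of all genes.

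Genes of high endothelial venules, the specialised vessels by which lymphocytes enter lymph nodes, were also followed. Glycam1 and Chst4, which encode a mucin-like glycoprotein and a sulfotransferase of these venules, had no count in any BALB/c mouse at 2M or 4M, and at 6M Glycam1 had 1 count and Chst4 none. In NOD.H-2b, Glycam1 had 0, 0 and 9 counts at 2M, 438, 322 and 252 at 4M and 838, 346 and 495 at 6M. Chst4 had 0, 0 and 1 counts at 2M, 33, 18 and 26 at 4M and 77, 33 and 32 at 6M. Taking 3 counts per library as the floor that a count of 0 allows, Glycam1 was at least 103-fold higher at 4M, and Chst4 was higher by at least 8.06-fold at 4M and 12.9-fold at 6M. Against the single BALB/c count at 6M, the ratio for Glycam1 was 1610 with a 95% counting interval of 288 to 63600. Madcam1, the mucosal addressin, had at most 3 counts in any group, at or under the floor.

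**Figure D4:**
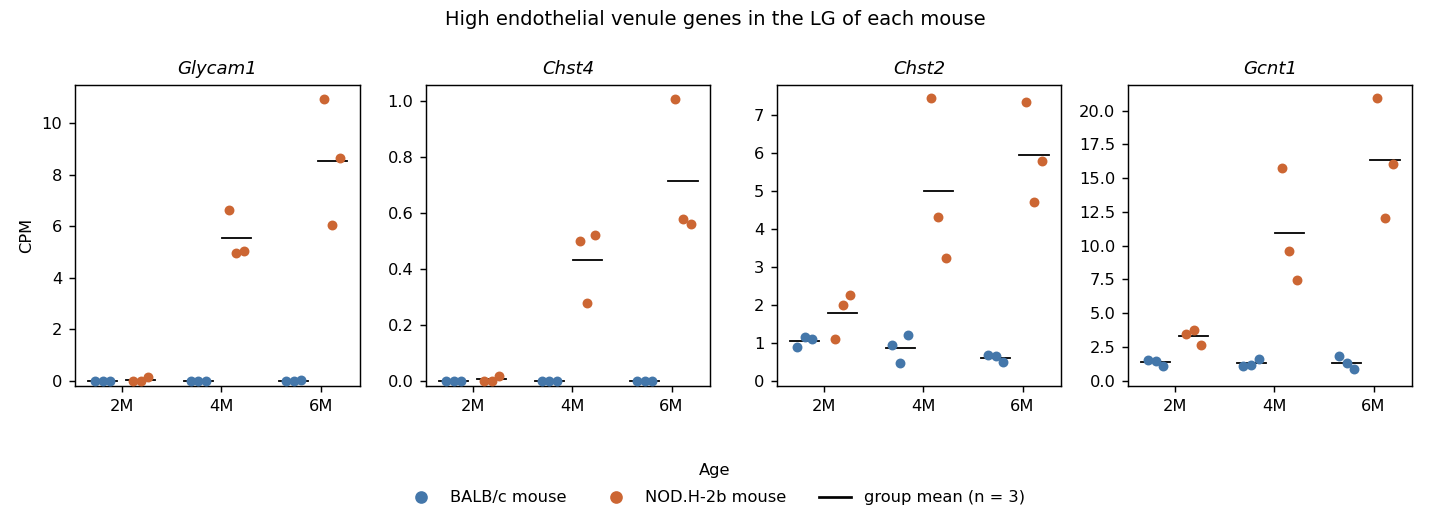
CPM (y) of Glycam1, Chst4, Chst2 and Gcnt1 by age (x), with a point per mouse (BALB/c blue, NOD.H-2b orange) and a line at the mean of 3 mice. Glycam1 and Chst4 are at 0 in the BALB/c mice of 2M and 4M and lie above it in every NOD.H-2b mouse of 4M and 6M.

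Of the enzymes that build the glycans of these venules, Gcnt1 and Chst2 were called higher at each age. Gcnt1, which starts core 2 branches, had 1.53, 1.47 and 1.08 CPM in the 2M BALB/c mice against 3.46, 3.74 and 2.66 CPM in the NOD.H-2b mice, and at 6M 1.85, 1.30 and 0.84 against 20.9, 12.0 and 16.0 CPM, with log2 fold changes of 1.32, 3.06 and 3.59 (FDR = 0.000379, 0.000271 and 4.39e-05, edgeR). Chst2 was higher by 0.81 ± 0.28, 2.51 ± 0.42 and 3.30 ± 0.22 (log2, SE, FDR = 0.0402, 0.00247 and 1.76e-06, edgeR) and is named after its values were seen. Fut4, the most abundant gene of the list, was called at 4M only (0.82 ± 0.20, SE, FDR = 0.0176), a call lost when any single BALB/c mouse was left out (FDR of 0.0521 to 0.0645) and with no filter on low counts (FDR = 0.0764). Of the 8 genes, Glycam1, Chst4 and Fut7 passed the filter only through the NOD.H-2b mice, so they are left out of the count. Of the 4 that also passed it within BALB/c (Gcnt1, Chst2, Fut4 and Ackr1), 3 were called higher at 2M, 4 at 4M and 2 at 6M, beside 22.5%, 23.4% and 28.6% of all genes. With any single mouse left out, the whole list had 1 or 2 genes called at 2M, and it had 1 without NOD.H-2b mouse 2 or 3. Gcnt1, Chst2 and Glycam1 are not particular to vessels, and the source of their counts was not tested. Lymphatic endothelial genes were mixed, with 1 higher and 1 lower of 4 tested at 2M, 1 lower at 4M and 1 of each at 6M. Of all genes, 22.5%, 23.4% and 28.6% were called higher and 17.2%, 19.2% and 25.8% lower at these ages. The lymphatic counts moved between 1 and 2 without single mice (BALB/c mouse 3 and NOD.H-2b mice 1 and 3 at 2M, BALB/c mouse 1 at 4M, BALB/c mouse 2 and NOD.H-2b mouse 3 at 6M). Reln, the most abundant of them, was lower at each age (-0.35, -1.01 and -1.10, FDR of at most 0.00902, edgeR).

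Most leukocyte counterparts of the adhesion genes were higher. Of 13 counter-receptors, Itgad passed the filter only through the NOD.H-2b mice. Of the other 12, 11 were called higher at each age, against 22.5%, 23.4% and 28.6% of all genes, and Itgam, a chain of Mac-1, was not called (FDR = 0.149, 0.67 and 0.51, edgeR). In the BALB/c comparisons that include 2M mice only 11 counter-receptors passed, so at 2M 1 of the 12 may have passed only through the NOD.H-2b mice. The 2M count is therefore a description. Itgal, the LFA-1 chain that binds both ICAM proteins, had log2 fold changes of 3.70, 3.35 and 4.21, and Itga4, the VLA-4 chain that binds VCAM-1, had 2.79, 3.08 and 4.05. Selplg, the P-selectin ligand PSGL-1, had 3.58, 2.90 and 3.64. Itgb1, the most abundant and common to many cell types, had 0.28, 0.35 and 0.36 (FDR of at most 0.0021), and Itgad had at most 1 count in any BALB/c mouse and 21 to 129 in the NOD.H-2b mice. Itgal, Itga4, Itgam and Selplg were named for the members they bind or after their values were seen.

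Cytokines and receptors known to induce adhesion molecules were mostly higher. Lta and Il1a at 4M and 6M and Ifng at 6M passed the filter only through the NOD.H-2b mice. Of the 9 that also passed it within BALB/c, 7 were called higher at 2M and 6 at 4M and 6M, with 2 lower at each age, against 22.5%, 23.4% and 28.6% of all genes higher and 17.2%, 19.2% and 25.8% lower. In the BALB/c comparisons that include 2M mice only 8 passed, so at 2M 1 of the 9 may have passed only through the NOD.H-2b mice. The 2M count is therefore a description. Without BALB/c mouse 1, the count called at 2M in either direction went from 9 to 5. Tnf was higher by 4.59 ± 0.36, 3.33 ± 0.48 and 4.18 ± 0.35 (log2, SE, FDR = 2.42e-06, 0.000831 and 7.14e-06, edgeR). Ltb, a subunit of membrane lymphotoxin, was higher by 4.01, 4.51 and 6.03, and its 2M call (FDR = 0.0202) was lost without BALB/c mouse 1 (FDR = 0.0682) or mouse 3 (FDR = 0.0969) and with no filter on low counts (FDR = 0.0718). Il1r1, the IL-1 receptor and the most abundant of the list, was lower by 0.62, 0.68 and 0.60. Of 13 NF-kB pathway genes, 7, 10 and 10 were called higher and 1, 1 and 2 lower at the 3 ages, beside those same shares of all genes, and the 4M count in either direction went from 11 to 7 without BALB/c mouse 1 or 2. Nfkbie, an inhibitor that NF-kB itself induces, had log2 fold changes of 1.44, 2.35 and 2.96, Relb, a subunit of the non-canonical pathway, had 2.15, 1.61 and 1.88, while Nfkb1, the most abundant, had 0.15 (FDR = 0.0728, and 0.00887 without NOD.H-2b mouse 1), 0.35 and 0.56. Tnf and Relb were named after their values were seen.

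Not every surface molecule of leukocyte passage was higher. Of 13 other adhesion and transmigration genes, 11 were tested, of which 2 were higher and 2 lower at 2M, 2 and 5 at 4M, and 2 and 7 at 6M. Of all genes, 22.5%, 23.4% and 28.6% were called higher and 17.2%, 19.2% and 25.8% lower at the 3 ages. Alcam, the most abundant, was lower by 0.26, 0.45 and 0.37 on the log2 scale (FDR of at most 0.0015, edgeR), and Pvr, a nectin-like receptor, was higher by 0.91, 0.48 and 0.54. Of 13 vascular growth factors and receptors, 3, 3 and 5 were higher and 4, 3 and 3 lower, beside the same shares of all genes. Nrp2, a co-receptor for VEGF-C, was higher by 1.20, 1.17 and 1.78, and Vegfa, the main ligand of the Kdr receptor, was lower by 0.55, 0.53 and 0.97 (FDR = 1.03e-05, 0.00342 and 6.14e-05) and is named here for that pairing. Pgf, the most abundant, was called lower at 6M (-0.98 ± 0.09, SE, FDR = 1.66e-05) and was not called at 2M or 4M (FDR = 0.171 and 0.061). These results turned on the setting, since Pgf was called at 2M in one fit of all 18 mice (FDR = 0.0478) and without BALB/c mouse 2 (FDR = 0.0233), and at 4M by DESeq2 (adjusted p = 0.000247), in that one fit (FDR = 0.0183), with the replicate block (FDR = 0.00742) and without NOD.H-2b mouse 1 (FDR = 0.0383).

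**Figure D5:**
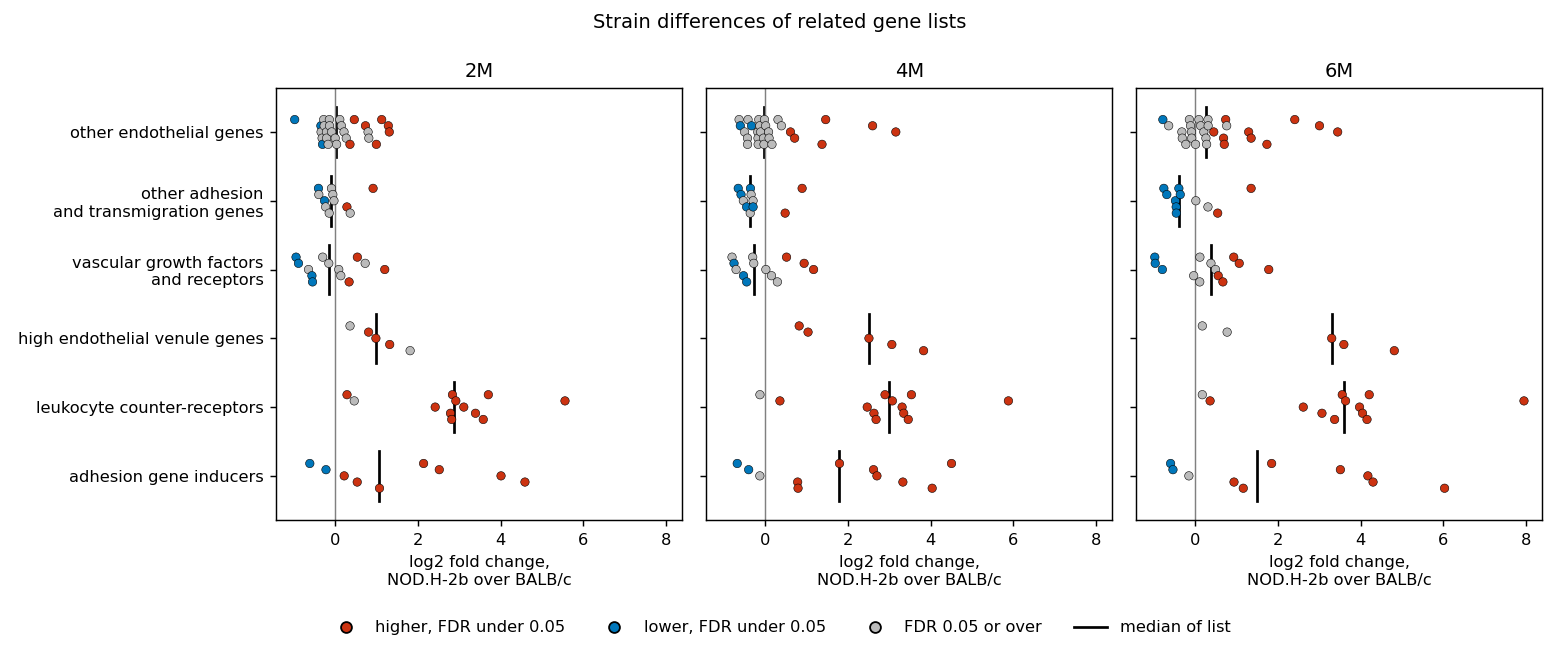
Each point is a gene of a list (y) at its log2 fold change of NOD.H-2b over BALB/c (x) at 2M, 4M and 6M, coloured by call, with a line at the median of the points. Genes with 3 or fewer counts in a strain are left out (Glycam1, Chst4, Itgad, Ifng or Il1a, by age). Of the 12 counter-receptors other than Itgad, 11 were called higher at each age, the count at 2M being a description. The medians of the other endothelial genes lie between -0.04 and 0.26.

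Cells around the vessels were checked with further lists, whose counts stand beside 22.5%, 23.4% and 28.6% of all genes called higher and 17.2%, 19.2% and 25.8% lower at 2M, 4M and 6M. Mural cell markers were mixed (1 higher and 4 lower at 2M, 2 and 3 at 4M, 4 and 1 at 6M), with Cspg4, the pericyte proteoglycan NG2, lower by 1.59, 1.90 and 2.00 on the log2 scale. Fibroblast markers at 2M summed to 594 ± 82.5 CPM for BALB/c against 782 ± 41.2 CPM for NOD.H-2b, 481 ± 98.7 and 375 ± 34.9 CPM at 4M, and 396 ± 48.5 and 379.9 ± 45.0 CPM at 6M, with 6, 0 and 1 of 8 called higher and 0, 1 and 0 lower. Without single mice the fibroblast count in either direction was as low as 3 at 2M (NOD.H-2b mouse 3) and as high as 5 at 4M (BALB/c mouse 1) and 2 at 4M (NOD.H-2b mouse 2) or 6M (NOD.H-2b mouse 3). Epithelial markers, of which Krt8 was the most abundant, summed to 825 ± 4.20 and 990.0 ± 76.0 CPM at 2M and to 846 ± 28.4 and 637 ± 58.3 CPM at 6M. Of 8, 6, 1 and 2 were higher and 0, 2 and 4 lower, and the 4M count in either direction went from 3 to 1 without BALB/c mouse 1 or 2. Only 6 of the 8 passed the filter in the BALB/c comparison of 2M with 6M. At these ages the others may have passed only through the NOD.H-2b mice, so the 2M and 6M counts are descriptions. Erythroid markers, a sign of blood left in the gland, summed to 31.2 ± 4.56 and 62.7 ± 20.7 CPM at 2M, 40.2 ± 11.1 and 74.3 ± 22.2 CPM at 4M, and 42.8 ± 14.6 and 45.2 ± 11.0 CPM at 6M. Of the 5, 2 were called higher at each age. Only 4 passed the filter within NOD.H-2b, so Hba-a2, the lower one, may have passed only through the BALB/c mice and is described with no test. With Hba-a2 included, the 6M count in either direction went from 3 to 1 without BALB/c mouse 1 or NOD.H-2b mouse 1 or 2. Since Hba-a2 has a near-identical copy, its log2 fold changes of -6.32, -6.82 and -6.93 are uncertain.

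Changes with age within NOD.H-2b are described with no test, since the set was chosen with the rise of Pecam1 in view. From 2M to 4M, Icam2, Vcam1, Icam1 and Pecam1 had log2 fold changes of 2.42, 1.39, 1.23 and 1.11. Cldn5, with few counts, had 0.67 (0.20 to 2.06 without single mice), Selp 0.48, Sele 0.18, Cdh5 0.15, Vwf -0.14 and Kdr -0.20. Single mice turned the sign of Sele (-0.14 without 2M mouse 1, 0.46 without 4M mouse 1) and of Cdh5 (-0.031 without 4M mouse 1). From 4M to 6M Vcam1 had 0.62, Icam2 0.45, Pecam1 0.27 and Icam1 0.26, each smaller than from 2M to 4M. The other genes had 0.17 for Vwf, 0.16 for Cdh5, 0.077 for Kdr, 0.036 for Sele, -0.094 for Selp and -0.55 for Cldn5. Without single mice, Pecam1 ranged from 0.084 (6M mouse 1) to 0.44 (4M mouse 1), Icam1 from 0.11 (4M mouse 2) to 0.45 (4M mouse 1), Icam2 from 0.30 (4M mouse 3) to 0.73 (4M mouse 1) and Vcam1 from 0.48 (6M mouse 1) to 0.87 (4M mouse 1). Every 4M and 6M NOD.H-2b mouse was above the 2M mean for Pecam1, Icam1, Vcam1, Icam2 and Selp, 5 of 6 were for Cdh5 and Sele, 4 of 6 for Cldn5, 3 of 6 for Vwf and none for Kdr. Cldn5 did not pass the filter in the comparison of 2M with 6M, and among the adhesion genes Sele and Selp had the smallest values from 2M to 6M (0.19 and 0.36), of which that of Sele was -0.10 without 2M mouse 1.

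In the control strain, 9 of the 10 genes could be tested across ages, and Sele did not pass the filter. From 2M to 4M, Kdr fell by 0.63 ± 0.11 on the log2 scale (SE, FDR = 0.00449, edgeR) and Vwf rose by 0.61 ± 0.07 (FDR = 0.000138), and 6.1% of all genes were called higher and 5.01% lower. Icam1 rose by 0.79 ± 0.20 (FDR = 0.0248), from 1.20 to 1.40 CPM at 2M to 1.91 to 2.62 CPM at 4M. The Icam1 call was lost in one fit of all 18 mice (FDR = 0.0708), with a replicate block (FDR = 0.0576), when any single 2M mouse was left out (FDR of 0.0613 to 0.0936) and without 4M mouse 3 (FDR = 0.0797). Vcam1 had 0.85 ± 0.28 (SE) and was not called (FDR = 0.073), but was called by DESeq2 (adjusted p = 0.039), with no filter on low counts (FDR = 0.00565) and without 4M mouse 1 (FDR = 0.0301).

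From 4M to 6M in BALB/c, none of the 9 genes tested was called by edgeR or DESeq2, while 6 had an unadjusted p under 0.05, against 15.5% of all genes. Their log2 fold changes were -1.17 for Icam2, -0.77 for Vcam1, -0.57 for Icam1, -0.38 for Pecam1, -0.37 for Cdh5 and -0.21 for Vwf, and 0.307% of all genes were called. Single mice moved the larger values, to -1.97 for Icam2 without 6M mouse 1 and to -0.40 for Vcam1 without 4M mouse 3. From 2M to 6M, Kdr fell by 0.83 ± 0.12 (SE, FDR = 0.00292, edgeR), Cdh5 fell by 0.53 ± 0.12 (FDR = 0.0236) and Vwf rose by 0.40 ± 0.06 (FDR = 0.00245), with 3.48% of all genes called higher and 2.13% lower. When any single 2M mouse or 6M mouse 1 was left out, Cdh5 was not called (FDR of 0.0643 to 0.118). None of the 4 adhesion genes tested was called from 2M to 6M by edgeR or DESeq2, the lowest FDR being 0.323 for Icam2, and 0 of them had an unadjusted p under 0.05. Pecam1 had -0.36 ± 0.11 (SE, FDR = 0.0957), and was called without 6M mouse 3 (FDR = 0.0331) or with no filter on low counts (FDR = 0.0185).

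Levels of different genes were compared per kilobase of exon (CPM per kb). In BALB/c at 2M the order was Kdr (2.32 ± 0.29), Cdh5 (1.52 ± 0.06), Pecam1 (1.49 ± 0.13) and Vwf (1.46 ± 0.009), the latter all within their spread of each other, followed by Icam1 (0.30 ± 0.02), Icam2 (0.22 ± 0.08), Cldn5 (0.16 ± 0.01), Vcam1 (0.13 ± 0.03), Selp (0.092 ± 0.001) and Sele (0.016 ± 0.009). In NOD.H-2b at 6M it was Pecam1 (5.51 ± 1.20), Icam1 (4.94 ± 1.00), Vwf (3.80 ± 0.30), Vcam1 (2.76 ± 0.55), Icam2 (2.19 ± 0.67), Cdh5 (1.89 ± 0.10), Kdr (1.32 ± 0.10), Selp (0.35 ± 0.04), Sele (0.13 ± 0.02) and Cldn5 (0.094 ± 0.05). Neighbours within their spread of each other were Icam1 and Icam2, Icam2 and Cldn5, and Cldn5 and Vcam1 in the first order, and Pecam1 and Icam1, Icam1 and Vwf, Vcam1 and Icam2, Icam2 and Cdh5, and Sele and Cldn5 in the latter. Kdr led the first order and stood below Cdh5 in the latter, while Icam1 and Vcam1 stood above Kdr in the latter only.

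For each gene, the most similar pattern over the 18 mice was sought among 11404 other expressed genes, each gene being centred on its own mean log2 CPM and compared by the root mean square of the differences. Nearest to Pecam1 were Lrrc8c (0.12), Zdhhc18 (0.15), Grk6 (0.15), Chst15 (0.17) and Pitpnm1 (0.17). Nearest to Icam1 was Samd9l (0.20), to Vcam1 H2-DMb1 (0.23), to Selp Pfkfb4 (0.22), to Vwf Ifngr2 (0.19), to Kdr Lmo4 (0.16) and to Cdh5 Zswim6 (0.13). The low genes had no close match, with 0.52 for Icam2 (Rbm38), 0.62 for Sele (Zhx2) and 0.63 for Cldn5 (Akap5). Among the 10 genes the most alike were Icam1 and Vcam1, at 0.30, and then Cdh5 and Kdr, at 0.42. Strain differences enter the likeness of the genes that have them, and the likeness is a description over the same 18 libraries.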

How the data were processed

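The raw counts per gene were deposited by the authors, who, per the labels and the study's methods, depleted ribosomal RNA, trimmed paired reads with cutadapt, mapped them to GRCm38 with STAR and counted with HTSeq. The strand setting of the counting is not given in the sources used here. The authors' table of normalized values was not used. Of the 54232 genes, 54165 were in GENCODE M21, the source of names, coordinates and exon lengths.

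The 10 genes and the further gene lists were chosen with earlier results of these data known. Strains at each age, and ages within BALB/c, were compared on the 6 mice concerned in R 4.3.3 with edgeR 4.0.16 (TMM, filterByExpr, robust quasi-likelihood test, Benjamini-Hochberg adjustment over all genes tested; FDR under 0.05), checked on simulated data. DESeq2 1.42.0 was an alternative. CPM came from TMM over the 18 mice, with a prior count of 0.5 for log2 values. The rule for names took from each list the most abundant gene, the gene with the largest mean change among those called in the same direction at all ages, and genes at 0 counts. Other names are marked. Cd79a, Cd3d, Adgre1, Csf1r, Col3a1 and Cldn4 also met the rule and are not described. Ccl21a has several gene IDs and was left out.

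Replicates differed by more than counting error (chi-square per gene of 17.7 to 91.1), so counting intervals and floors cover counting error only. Same-numbered mice are different animals, and deviations of all 3 pairs correlated above 0.1 only for BALB/c at 2M and 6M (0.101 to 0.136), where a replicate block changed no call. A further counter-receptor gene and platelet marker enter the counts and sums of their lists and are otherwise not reported here.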

Additional observations from a re-analysis of the deposited data

How the results depend on the processing

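The strain calls of Icam1, Vcam1, Selp and Vwf at each age kept their direction and call in every alternative that tested them (DESeq2 size factors, upper quartile normalization, no filter, a minimum of 10 counts in each sample, the DESeq2 test, a fit of all 18 mice, a replicate block and each mouse left out). With that minimum of 10 counts, 3 adhesion genes were called at 6M, since fewer genes are tested. At 4M, 2 vessel identity genes were called in the fit of all 18 mice. In BALB/c from 2M to 4M, adhesion genes called were 2 with no filter or DESeq2's test, 0 in the fit of 18 mice, 0 with the replicate block, and 0 to 2 without single mice. From 4M to 6M, 1 gene (Pecam1, adjusted p = 0.0458), of the vessel identity class, was called with no filter. The replicate block ended the Icam1 call in BALB/c from 2M to 4M and gave calls for Fut4 at 2M (0.37, adjusted p = 0.00614) and Pgf at 4M (-0.83, adjusted p = 0.00742). It took the count of erythroid markers at 6M, Hba-a2 included, from 3 to 1 and changed no other call. Without single mice, the median log2 fold change of the 10 genes between the 2M and 4M NOD.H-2b mice ranged from 0.37 to 0.76, and the adhesion median relative to other endothelial genes at 4M from 2.68 to 3.01. Signs of values near 0 turned without single mice, over -0.053 to 0.42 for Icam2 and -0.049 to 0.080 for Pecam1 in BALB/c from 2M to 4M, -0.16 to 0.25 for Vcam1 from 2M to 6M, -0.39 to 0.20 for Cldn5 and -0.077 to 0.47 for Selp from 4M to 6M, -0.14 to 0.46 for Sele and -0.031 to 0.22 for Cdh5 between the 2M and 4M mice of NOD.H-2b, -0.10 to 0.47 for Sele and -0.046 to 0.067 for Vwf between their 2M and 6M mice, -0.28 to 0.26 for Sele and -0.26 to 0.012 for Selp between their 4M and 6M mice, and between strains -0.0033 to 0.11 for Cdh5 and -0.16 to 0.029 for Myh11 at 2M, -0.23 to 0.13 for Krt8 at 4M, and -0.28 to 0.24 for Hbb-bs and -0.050 to 0.16 for Kdr at 6M. The cause was not tested. Low counts limit Cldn5, Sele, Glycam1, Chst4 and, in BALB/c at 6M, Icam2.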
